A study of Mus musculus with 8 samples.

Results

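The expression of 10 chemokine genes of cultured mouse pancreatic cancer cells was followed across 4 groups of RNA-sequencing libraries, out of 42687 genes in the deposited count table. The genes were chosen by name and found by their Ensembl identifiers. They comprise 5 chemokines whose transcription is classically driven by NF-kB (Cxcl1, Cxcl3, Cxcl5, Ccl2 and Ccl20), 3 classically induced by interferon (Cxcl9, Cxcl10 and Ccl5), and 2 made as transmembrane proteins (Cxcl16 and Cx3cl1). The division into these classes comes from textbook knowledge, but the genes themselves were chosen with earlier results of these data known. Counts of members called therefore describe these genes and are not independent evidence. Of the 10 genes, 9 had enough counts to be tested and Ccl5 did not.

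The cells were a single clone of low immunogenicity from KPCY mice. In these mice the mutant alleles KrasLSL-G12D/+ and Trp53LSL-R172H/+ are switched on by Pdx1-Cre, which is active in the pancreatic lineage, and the cells carry Rosa26YFP/YFP, a fluorescent reporter. All 4 groups shared this genotype, although the genotype field of the sample labels reads WT. The control group received PBS. The ATEV group received 15 µg/mL of vesicles labelled ATEVs, read here as extracellular vesicles of activated T cells by contrast with NTEVs, which the labels give as vesicles of non-activated T cells. The NTEV group received 30 µg/mL, and the labels relate the vesicle amounts to 5 µg/mL of vesicle DNA. The DNase-ATEV group received 15 µg/mL of ATEVs pretreated with Baseline-ZERO DNase. The cells of each group were taken through 8 rounds of exposure and reseeding. Each group had 2 libraries, called library 1 and library 2 here, with totals of 34385326 to 52451398 gene counts. Nothing in the labels ties the 2 libraries of a group to different cultures, and p-values therefore reflect the spread among these libraries, which may be technical. An exact two-sided permutation test of 2 libraries against 2 cannot give a p under 0.333, and all p-values below come from edgeR's quasi-likelihood test, fitted over 15197 genes and all 8 libraries and adjusted by the Benjamini-Hochberg method. A gene is said to have risen or fallen where its adjusted p was under 0.05.

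Chemokines are small proteins that guide leukocytes through G-protein-coupled receptors. In the mouse, Cxcl1, Cxcl3 and Cxcl5 act on Cxcr2 of neutrophils, Ccl2 draws monocytes through Ccr2, and Ccl20 draws Ccr6-bearing lymphocytes and dendritic cells. Cxcl9 and Cxcl10 draw activated T cells and natural killer cells through Cxcr3, and Ccl5 draws T cells and monocytes. NF-kB is a transcription factor that is held in the cytoplasm by inhibitors such as Nfkbia and binds kappaB sites in the promoters of its targets. Interferons signal through Jak kinases to transcription factors of the Stat family and, in turn, to interferon regulatory factors such as Irf1, and these bind sequences known as GAS and ISRE. In pancreatic cancer, chemokines made by the tumour cells are known to shape which leukocytes enter the tumour.

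Promoter sequence was taken from RefSeq (assembly GRCm38.p6) for the 6 genes its table held, which left out Cxcl5, Ccl2, Ccl5 and Cxcl16. The 250 bases before the RefSeq start of transcription were searched on both strands for the kappaB motif, for the ISRE core TTTCNNTTTC and for the GAS core TTCNNNGAA. The kappaB motif was present in 7.25% of all 32851 promoters of that length, the ISRE core in 2.98% and the GAS core in 7.02%. The promoters of 3 NF-kB-type and 2 interferon-type genes are shown, 5′ to 3′ on the gene's own strand, so that both classes can be compared base by base. Capitals mark the kappaB matches and, in Cxcl10, also the ISRE match.
Cxcl1 (chr5:90890995-90891244, plus strand): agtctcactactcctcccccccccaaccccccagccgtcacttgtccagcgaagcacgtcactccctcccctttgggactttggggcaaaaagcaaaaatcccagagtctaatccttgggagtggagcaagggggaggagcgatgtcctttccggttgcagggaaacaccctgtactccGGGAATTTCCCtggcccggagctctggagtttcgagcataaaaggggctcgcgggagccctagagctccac
Cxcl3 (chr5:90785851-90786100, plus strand): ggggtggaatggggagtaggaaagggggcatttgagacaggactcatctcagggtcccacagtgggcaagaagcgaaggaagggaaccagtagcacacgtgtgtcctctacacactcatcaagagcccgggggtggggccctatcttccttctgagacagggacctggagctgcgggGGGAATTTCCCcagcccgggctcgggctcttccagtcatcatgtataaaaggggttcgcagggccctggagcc
Ccl20 (chr1:83116516-83116765, plus strand): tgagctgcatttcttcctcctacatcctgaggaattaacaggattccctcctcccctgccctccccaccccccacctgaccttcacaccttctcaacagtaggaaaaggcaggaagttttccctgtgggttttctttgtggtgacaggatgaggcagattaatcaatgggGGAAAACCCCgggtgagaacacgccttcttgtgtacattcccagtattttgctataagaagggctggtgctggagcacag
Cxcl9 (chr5:92328080-92328329, minus strand): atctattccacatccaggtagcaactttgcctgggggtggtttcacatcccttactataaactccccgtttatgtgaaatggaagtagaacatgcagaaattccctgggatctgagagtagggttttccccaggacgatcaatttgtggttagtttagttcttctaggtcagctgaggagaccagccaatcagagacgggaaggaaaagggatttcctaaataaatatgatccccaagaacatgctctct
Cxcl10 (chr5:92348890-92349139, minus strand): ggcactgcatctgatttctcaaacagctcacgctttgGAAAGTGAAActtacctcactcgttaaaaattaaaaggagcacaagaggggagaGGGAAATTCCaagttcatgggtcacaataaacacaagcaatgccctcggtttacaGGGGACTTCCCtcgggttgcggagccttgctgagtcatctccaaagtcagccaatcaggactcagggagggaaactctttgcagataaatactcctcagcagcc

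The Cxcl1 and Cxcl3 promoters held the same 10-base match, GGGAATTTCC, at bases -71 to -62 and -73 to -64 from the start, and each also matched 1 base further on the opposite strand. Ccl20 had 1 match, on the opposite strand, at -80 to -71. Cxcl10 held both kinds of motif: kappaB matches at -159 to -150, at -104 to -95 and, on both strands, at -103 to -94, and an ISRE match on the opposite strand at -213 to -204. In the Cxcl9 and Cx3cl1 windows none of the 3 motifs was found, and no GAS core was found in any of the 6 windows. A match is a description of the letters, and binding was not measured.

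The genes lie in a few clusters (GRCm38, GENCODE M21 gene bounds). Cxcl5 (chr5:90759360-90761624), Cxcl3 (chr5:90786103-90789600) and Cxcl1 (chr5:90891241-90893115) are neighbours on the plus strand, and Cxcl9 (chr5:92321347-92328079) and Cxcl10 (chr5:92346638-92348889) are neighbours on the minus strand of the same chromosome. Ccl2 (chr11:82035571-82037453) and Ccl5 (chr11:83525778-83530518) share chromosome 11 with Cxcl16 (chr11:70453983-70459984). Ccl20 lies at chr1:83116766-83119167 and Cx3cl1 at chr8:94772009-94782427. The counts cover whole genes, exons and UTRs together, and do not separate transcripts.

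In the PBS group the most abundant of the 10 messages per length were Cxcl16 and Cxcl5. Levels between genes are given as counts-per-million per kilobase of exon (CPM per kb), as the mean of the 2 libraries. Cxcl16 was at 50.4 and Cxcl5 at 48.0 CPM per kb, and their libraries overlapped. Cx3cl1 at 15.7, Ccl20 at 14.6 and Cxcl1 at 6.85 CPM per kb followed, each overlapping the next. Ccl2 at 2.43 and Cxcl3 at 1.91 CPM per kb also overlapped. Both stood above the interferon-type genes, which were at 0.406 (Cxcl10), 0.109 (Cxcl9) and 0.0677 CPM per kb (Ccl5), the last 2 overlapping. With DNase-treated ATEVs, Cxcl5 led at 586 CPM per kb, ahead of Ccl20 at 142 and Cxcl1 at 102, which overlapped, while Cxcl16 at 65.5 CPM per kb overlapped Cxcl1. Next came Ccl2 at 36.7, Cxcl3 at 31.9 and Cx3cl1 at 30.03 CPM per kb, each overlapping its neighbour, and Cxcl10 at 1.10 CPM per kb. With ATEVs, Cxcl5 at 247 CPM per kb again stood above all others, and Cxcl10 and Cxcl9 reached 11.8 and 5.91 CPM per kb. The NTEV group kept the order of PBS, except that Cxcl3 at 1.48 CPM per kb stood beside Ccl2 at 1.47 CPM per kb, and these overlapped.

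**Figure D1:**
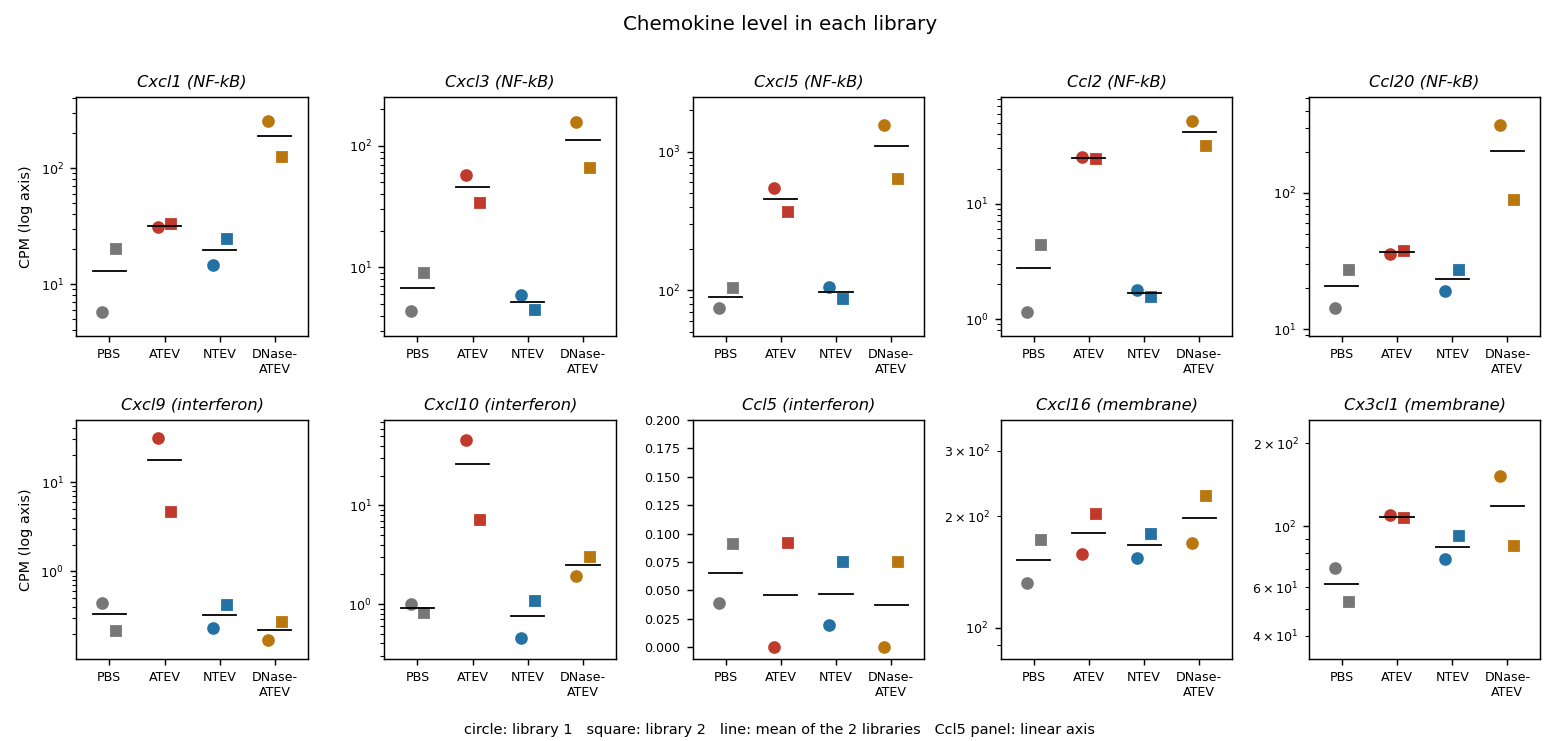
TMM-scaled CPM of each chemokine (vertical axis, logarithmic except for Ccl5) in the 2 libraries of each group (circles and squares), with a line at the group mean. The 5 NF-kB-type genes were highest in the DNase-ATEV libraries, and Cxcl9 and Cxcl10 were highest in the ATEV libraries.

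The NF-kB-type chemokines stood highest in cells given DNase-treated ATEVs, second with ATEVs, and in overlapping low ranges with PBS and NTEVs. Against PBS, all 5 rose with DNase-treated ATEVs, beside 2.16% of all tested genes that rose and 0.855% that fell. Of the 5, 3 (Cxcl3, Cxcl5 and Ccl2) rose with ATEVs. The interferon-type Cxcl9 and Cxcl10 rose as well, so 5 of the 9 tested members rose with ATEVs, beside 3.52% of all tested genes that rose and 1.66% that fell. No member fell in either comparison. Both comparisons use the same PBS libraries. In bulk RNA, more cells that express a chemokine and more RNA per cell cannot be told apart.

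Cxcl5, a neutrophil attractant, was at 75.0 and 104 CPM in the PBS libraries, 550.2 and 368 CPM with ATEVs, 106 and 86.9 CPM with NTEVs, and 1548 and 636 CPM with DNase-treated ATEVs. Both ATEV libraries and both DNase-ATEV libraries lay above all PBS and NTEV libraries, and the latter overlapped. Cxcl5 rose 12.2-fold with DNase-treated ATEVs (log2 fold change 3.61 ± 0.45 SE, adjusted p by edgeR 0.0171) and 5.14-fold with ATEVs (log2 fold change 2.36 ± 0.43 SE, edgeR adjusted p 0.0272). Cxcl3, of the same receptor family, was at 4.35 and 9.03 CPM with PBS, 57.4 and 34.1 CPM with ATEVs, 5.92 and 4.43 CPM with NTEVs, and 158 and 65.3 CPM with DNase-treated ATEVs. The order of the groups was that of Cxcl5, without overlap between the DNase-ATEV, ATEV and remaining libraries. Cxcl3 rose 16.8-fold with DNase-treated ATEVs (log2 fold change 4.07 ± 0.56 SE, adjusted p by edgeR 0.0210) and 6.89-fold with ATEVs (log2 fold change 2.78 ± 0.53 SE, edgeR adjusted p 0.0328).

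Ccl2, the monocyte attractant, was at 1.15 and 4.38 CPM with PBS, 25.4 and 24.4 CPM with ATEVs, 1.80 and 1.54 CPM with NTEVs, and 52.1 and 31.4 CPM with DNase-treated ATEVs. The ATEV libraries were nearly equal, whereas the PBS libraries differed 3.82-fold. Ccl2 rose 15.4-fold with DNase-treated ATEVs (log2 fold change 3.95 ± 0.59 SE, adjusted p by edgeR 0.0246) and 9.20-fold with ATEVs (log2 fold change 3.20 ± 0.57 SE, edgeR adjusted p 0.0259).

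Cxcl1 and Ccl20 rose with DNase-treated ATEVs and did not pass the test with ATEVs. Cxcl1, another Cxcr2 ligand, was at 5.71 and 19.97 CPM with PBS, 31.1 and 32.7 CPM with ATEVs, 14.7 and 24.6 CPM with NTEVs, and 256 and 125 CPM with DNase-treated ATEVs. Ccl20, the Ccr6 ligand, was at 14.3 and 27.1 CPM with PBS, 35.8 and 37.3 CPM with ATEVs, 19.1 and 27.4 CPM with NTEVs, and 315 and 88.9 CPM with DNase-treated ATEVs. The DNase-ATEV libraries stood above every other library for both genes, and those of Ccl20 differed 3.54-fold from each other. With DNase-treated ATEVs Cxcl1 rose 15.0-fold (log2 fold change 3.90 ± 0.64 SE, adjusted p by edgeR 0.0308) and Ccl20 rose 9.79-fold (log2 fold change 3.29 ± 0.60 SE, edgeR adjusted p 0.0409). With ATEVs the log2 fold changes of 1.32 ± 0.59 SE for Cxcl1 (edgeR adjusted p 0.248) and 0.82 ± 0.56 SE for Ccl20 (edgeR adjusted p 0.434) did not pass the test, although both ATEV libraries lay above both PBS libraries. These values depended on the PBS libraries: Cxcl1 was at 0.67 without PBS library 1 and 2.48 without PBS library 2, and Ccl20 at 0.43 and 1.35. Whether the ATEV response of these 2 genes differs from that of the other 3 was not tested.

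The median log2 fold change of the 5 genes was 3.90 with DNase-treated ATEVs and 2.36 with ATEVs, beside 0.00 and -0.02 over all tested genes. The calls rested on the PBS libraries. Without PBS library 1 none of the 10 calls of members against PBS held, those of Cxcl9 and Cxcl10 included, and without PBS library 2 only the 2 calls of Ccl2 did. Cxcl1, Cxcl3 and Ccl2 also lost the DNase-ATEV call without DNase-ATEV library 1, as did Ccl20, and Cxcl1 and Ccl2 lost it without DNase-ATEV library 2. Ccl20 lost it without either NTEV library, Cxcl3, Cxcl5 and Ccl2 lost the ATEV call without ATEV library 1, and Ccl2 lost it without ATEV library 2. With protein-coding genes only, Cxcl5 alone of the 5 kept the DNase-ATEV call, and with only the PBS and ATEV libraries in the fit Ccl2 lost the ATEV call. Across all settings tried, their log2 fold changes stayed between 2.14 (Ccl20) and 5.17 (Ccl2) with DNase-treated ATEVs, and the highest edgeR adjusted p was 0.219 (Ccl20). With ATEVs the log2 fold change ran from 2.4999 without PBS library 1 to 4.44 without PBS library 2 for Ccl2, from 2.34 to 3.39 for Cxcl3 and, over all settings, from 2.09 to 2.62 for Cxcl5.

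**Figure D2:**
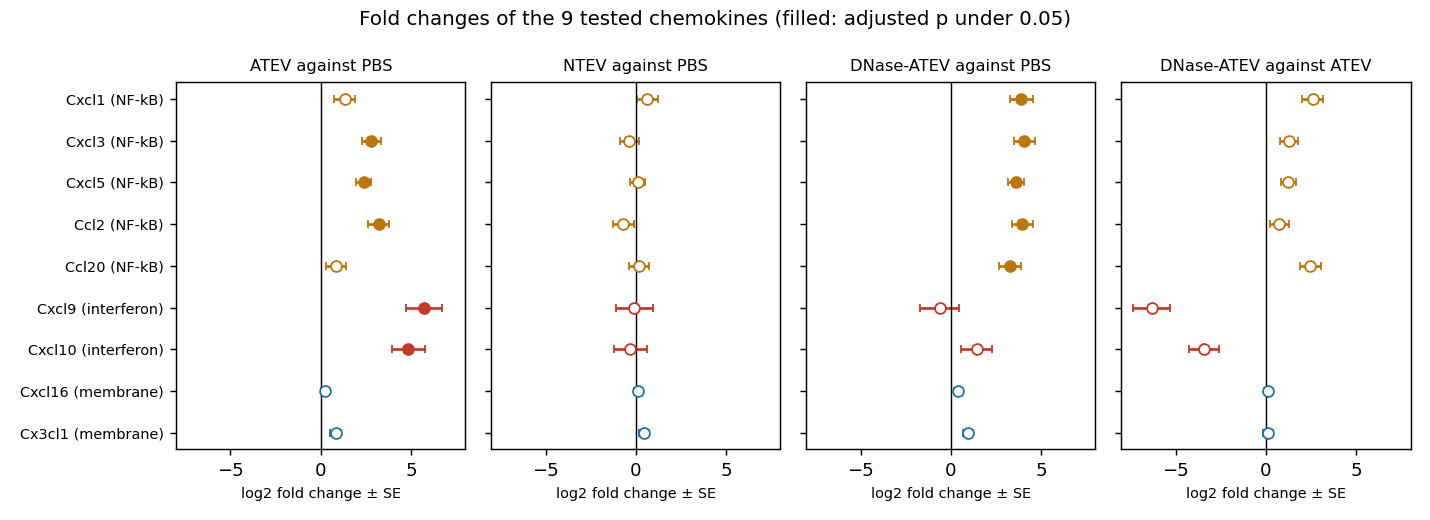
Log2 fold changes ± SE (horizontal axis) of the 9 tested chemokines in 4 comparisons, with filled points where the edgeR adjusted p was under 0.05. Filled points stand at 2.36 to 5.69 for 5 genes with ATEVs and at 3.29 to 4.07 for the 5 NF-kB-type genes with DNase-treated ATEVs, and none is filled with NTEVs or between DNase-treated and untreated ATEVs.

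The interferon-type chemokines had another order of groups: Cxcl9 and Cxcl10 were high with ATEVs alone. Cxcl9, an attractant of activated T cells, was at 0.447 and 0.213 CPM with PBS, 31.1 and 4.59 CPM with ATEVs, 0.235 and 0.423 CPM with NTEVs, and 0.169 and 0.274 CPM with DNase-treated ATEVs. Both ATEV libraries stood above all 6 others, which overlapped, and the ATEV libraries differed 6.77-fold from each other. Outside the ATEV group the gene had 7 to 23 counts a library, and within it 1351 and 201. Cxcl9 rose 51.7-fold with ATEVs against PBS (log2 fold change 5.69 ± 0.98 SE, edgeR adjusted p 0.0233). With DNase-treated ATEVs the log2 fold change against PBS was -0.62 ± 1.09 SE (edgeR adjusted p 0.740).

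Cxcl10, the other Cxcr3 ligand of the group, was at 1.01 and 0.821 CPM with PBS, 46.0 and 7.12 CPM with ATEVs, 0.450 and 1.07 CPM with NTEVs, and 1.94 and 3.01 CPM with DNase-treated ATEVs. The ATEV libraries were the highest and again unequal, 6.46-fold apart, with library 1 above library 2 as for Cxcl9. The DNase-ATEV libraries lay above the PBS and NTEV libraries and below the ATEV libraries, in counts 80 and 121 a library against 23 to 52. Cxcl10 rose 28.7-fold with ATEVs against PBS (log2 fold change 4.84 ± 0.92 SE, adjusted p by edgeR 0.0312), and its log2 fold change with DNase-treated ATEVs was 1.42 ± 0.85 SE (edgeR adjusted p 0.332). The ATEV calls of Cxcl9 and Cxcl10 held without either ATEV library, with log2 fold changes of 3.78 and 2.99 without library 1, and both were lost without PBS library 1 or 2. That of Cxcl10 was lost as well without either DNase-ATEV library, both were lost with only the PBS and ATEV libraries in the fit, and its highest edgeR adjusted p was 0.228.

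Ccl5, an attractant of T cells that T cells themselves make in large amounts, was close to absent. In library 1 of the PBS, ATEV, NTEV and DNase-ATEV groups it had 2, 0, 1 and 0 counts, and in library 2 it had 3, 4, 3 and 3. A count of 3 is worth 0.0583 to 0.0912 CPM in these libraries, the limit that a count of 0 allows for counting error only. The gene was filtered out before the test and no fold is given. Its level did not follow those of Cxcl9 and Cxcl10, and at this depth no difference between the groups was detectable.

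By each gene's largest log2 fold change over all comparisons, the transmembrane chemokines differed least among the tested members, at 0.38 for Cxcl16 and 0.94 for Cx3cl1. In single comparisons this did not always hold: with NTEVs against PBS Cx3cl1 differed more than Cxcl3 (0.44 and -0.36). Cxcl16, the Cxcr6 ligand and a scavenger receptor, was at 132 and 172 CPM with PBS, 158 and 202 CPM with ATEVs, 154 and 179 CPM with NTEVs, and 169 and 227 CPM with DNase-treated ATEVs. The libraries of all 4 groups overlapped, library 2 was the higher in each, and the log2 fold change against PBS was at most 0.38 ± 0.22 SE (DNase-treated ATEVs, edgeR adjusted p 0.311). Cx3cl1, known as fractalkine and the ligand of Cx3cr1, was at 70.4 and 52.9 CPM with PBS, 109.6 and 107 CPM with ATEVs, 75.8 and 92.1 CPM with NTEVs, and 152 and 84.4 CPM with DNase-treated ATEVs. All 6 libraries of vesicle-treated cells lay above both PBS libraries. Its log2 fold changes against PBS were 0.81 ± 0.28 SE with ATEVs (edgeR adjusted p 0.152), 0.44 ± 0.28 SE with NTEVs (edgeR adjusted p 0.389) and 0.94 ± 0.28 SE with DNase-treated ATEVs (edgeR adjusted p 0.109). None passed the test by edgeR, and DESeq2 called the last of them.

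With NTEVs, given at the larger vesicle amount, no chemokine passed the test against PBS. By edgeR 0 of the 9 tested members were called, beside 0.704% of all tested genes that rose and 0.408% that fell. DESeq2 also called 0 of them, and 0 had an edgeR unadjusted p under 0.05. Log2 fold changes ran from -0.69 ± 0.57 SE (Ccl2, edgeR adjusted p 0.493) to 0.62 ± 0.58 SE (Cxcl1, edgeR adjusted p 0.543). The libraries of the groups overlapped for every member but Cx3cl1. The SEs of 0.41 (Cxcl5) to 0.58 (Cxcl1) for the NF-kB-type genes and of 1.03 for Cxcl9 limit what could have been seen.

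Set against NTEVs, ATEVs gave higher levels of the same kinds of chemokine. Of the 9 tested members 3 rose, beside 1.05% of all tested genes that rose and 0.145% that fell. Ccl2 rose 14.8-fold (log2 fold change 3.89 ± 0.59 SE, edgeR adjusted p 0.0311), Cxcl3 rose 8.82-fold (log2 fold change 3.14 ± 0.54 SE, adjusted p by edgeR 0.0497) and Cxcl9 rose 54.6-fold (log2 fold change 5.77 ± 0.99 SE, edgeR adjusted p 0.0479). Cxcl5 at 2.25 ± 0.43 SE (edgeR adjusted p 0.0715) and Cxcl10 at 5.14 ± 0.93 SE (edgeR adjusted p 0.0605) did not pass by edgeR and were called by DESeq2. All 3 calls were lost without either NTEV library (highest edgeR adjusted p 0.328, for Cxcl9). Those of Cxcl3 and Cxcl9 were also lost without either PBS library, that of Cxcl3 without ATEV library 1, that of Ccl2 without either ATEV library, and that of Cxcl9 without either DNase-ATEV library. With only the ATEV and NTEV libraries in the fit, that of Ccl2 alone held. The vesicle amounts of the groups differed, at 15 and 30 µg/mL.

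DNase-treated were also compared directly with untreated ATEVs, which asks what differed after the pretreatment. By edgeR 0 of the 9 tested members passed, beside 0.0855% of all tested genes that rose and 0.579% that fell, while 6 had an unadjusted p under 0.05 and DESeq2 called 4. For all 5 NF-kB-type genes both DNase-ATEV libraries lay above both ATEV libraries. How many of all tested genes were so separated, in either direction, was not counted. The log2 fold changes were 2.58 ± 0.60 SE for Cxcl1 (edgeR adjusted p 0.176), 2.47 ± 0.58 SE for Ccl20 (edgeR adjusted p 0.179), 1.29 ± 0.50 SE for Cxcl3 (edgeR adjusted p 0.392), 1.25 ± 0.41 SE for Cxcl5 (edgeR adjusted p 0.313) and 0.75 ± 0.51 SE for Ccl2 (edgeR adjusted p 0.675). The tested interferon-type genes, Cxcl9 and Cxcl10, went the other way, with both DNase-ATEV libraries below both ATEV libraries. Cxcl9 differed by -6.31 ± 1.03 SE (edgeR unadjusted p 0.000421, adjusted p 0.0588) and Cxcl10 by -3.42 ± 0.84 SE (edgeR unadjusted p 0.00451, adjusted p 0.195). DESeq2 called Cxcl1 and Ccl20 higher and Cxcl9 and Cxcl10 lower. Without ATEV library 2 edgeR called Cxcl9 (-7.12, adjusted p 0.00207) and Cxcl10 (-4.22, adjusted p 0.00900) lower, and without ATEV library 1 the differences were -4.38 (edgeR adjusted p 0.0502) and -1.54 (edgeR adjusted p 0.498) on the log2 scale. For Cxcl16 (0.14 ± 0.22 SE) and Cx3cl1 (0.13 ± 0.28 SE) the libraries overlapped.

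Against NTEVs, DNase-treated ATEVs gave no member a call by edgeR, beside 0.0461% of all tested genes that rose and 0.00658% that fell, although 5 members had an unadjusted p under 0.05. These were the NF-kB-type genes, with log2 fold changes from 3.12 ± 0.60 SE (Ccl20, edgeR adjusted p 0.243) to 4.64 ± 0.61 SE (Ccl2, edgeR adjusted p 0.0939). DESeq2 called all 5, beside 198 genes in all. Cxcl9 stood at -0.54 ± 1.10 SE and Cxcl10 at 1.72 ± 0.87 SE (edgeR adjusted p 0.916 and 0.563).

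Summed over each class, the contrast was visible in single libraries. The 5 NF-kB-type genes together were at 100.4 and 164 CPM with PBS, 699.9 and 497 CPM with ATEVs, 148 and 145 CPM with NTEVs, and 2329 and 947 CPM with DNase-treated ATEVs. The interferon-type genes together were at 1.496 and 1.12 CPM with PBS, 77.1 and 11.8 CPM with ATEVs, 0.704 and 1.57 CPM with NTEVs, and 2.11 and 3.36 CPM with DNase-treated ATEVs. The ATEV libraries were thus raised on both sums and the DNase-ATEV libraries above all on the first. The ratio of the first sum to the second was 67.2 and 146 in the PBS libraries, 9.08 and 42.1 in the ATEV libraries, 210.1 and 92.4 in the NTEV libraries, and 1106 and 282 in the DNase-ATEV libraries. It was lowest in the ATEV libraries and highest in the DNase-ATEV libraries, and PBS and NTEVs overlapped. The transmembrane sum ran only from 203 to 321 CPM over all 8 libraries. Cxcl5 held most of the NF-kB-type sum, so the sum chiefly describes that gene.

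**Figure D3:**
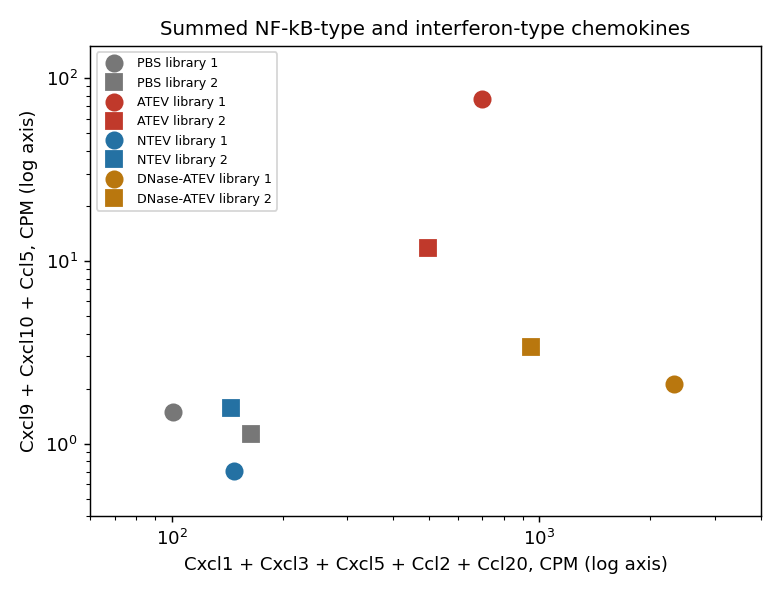
Summed CPM of Cxcl1, Cxcl3, Cxcl5, Ccl2 and Ccl20 (horizontal, logarithmic) against that of Cxcl9, Cxcl10 and Ccl5 (vertical, logarithmic), 1 point a library. PBS and NTEV libraries lie together at the lower left, the ATEV libraries stand highest on the vertical axis at 11.8 and 77.1 CPM, and the DNase-ATEV libraries lie farthest right at 947 and 2329 CPM.

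Every pair among the 5 NF-kB-type genes was positively correlated across the 8 libraries. Pearson's r of log2 CPM, given as a description over libraries that share groups, was 0.99 between Cxcl3 and Cxcl5, 0.98 between Cxcl3 and Ccl2, and 0.97 between Cxcl1 and Ccl20. It was 0.89 for Cxcl5 with both Cxcl1 and Ccl20, 0.84 between Cxcl1 and Ccl2 and 0.81 between Ccl20 and Ccl2, and these values were not compared by a test. Cxcl9 and Cxcl10 had r = 0.91 with each other. Cxcl9 had -0.12 with Cxcl1, and Cxcl10 had 0.61 with Cxcl3. Outside the 10 members, which were left out of this search, the genes most like each member over the 8 libraries, among 10590 compared, were Clca3b for Cxcl3 (r = 0.99) and Cxcl5 (0.98), Vnn1 for Ccl2 (0.98), Zfp598 for Cxcl1 (0.96) and Gpx1 for Ccl20 (0.96). Csf1 and Zc3h12a followed for Cxcl5 (0.97 and 0.96). Those for Cxcl9 were Parp11, Rbm43 and Irgm1 (0.99, 0.98 and 0.98), and those for Cxcl10 were Ube2l6, Il18bp and Idnk (0.98, 0.97 and 0.97). Cxcl16 was most like Angptl4 (0.97) and Cx3cl1 most like Ly9 (0.98).

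The rest of the chemokine family was mostly silent in these cells. Of 28 other chemokine genes, 10 had no count in any library and 12 were tested. With DNase-treated ATEVs 2 of the 12 rose against PBS, beside 2.16% of all tested genes. Cxcl2, a further Cxcr2 ligand from the same cluster as Cxcl1, went from 0.117 and 0.274 CPM to 7.62 and 3.26 CPM (log2 fold change 4.85 ± 0.73 SE, edgeR adjusted p 0.0252). With ATEVs it was at 0.782 and 0.639 CPM, and that difference did not pass the test (edgeR adjusted p 0.183). Ccl7, a monocyte attractant that neighbours Ccl2, went from 0.0971 and 0.304 CPM with PBS to 4.36 and 3.96 CPM with DNase-treated ATEVs (log2 fold change 4.44 ± 0.65 SE, edgeR adjusted p 0.0229).

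With ATEVs 3 of the 12 rose against PBS, beside 3.52% of all tested genes: Ccl7, Ccl8 and Cxcl11. Ccl7 was at 0.897 and 2.05 CPM (log2 fold change 2.95 ± 0.64 SE, edgeR adjusted p 0.0447). Ccl8, another ligand of inflammatory cells, went from 0.117 and 0.182 CPM with PBS to 2.62 and 1.48 CPM (log2 fold change 3.79 ± 0.53 SE, edgeR adjusted p 0.01002), stood at 0.605 and 0.597 CPM with DNase-treated ATEVs, and was the 1 gene of the 12 that also rose with ATEVs against NTEVs (edgeR adjusted p 0.0201). That second call was lost without either PBS library, either NTEV library or ATEV library 1 and with only the 2 groups in the fit, with an edgeR adjusted p of up to 0.181. Cxcl11, the remaining Cxcr3 ligand, had 2 and 1 counts with PBS and 38 and 14 with ATEVs (log2 fold change 3.97 ± 0.86 SE, edgeR adjusted p 0.0428), against 2 and 4 with DNase-treated ATEVs. Cxcl2, like Cxcl1, was thus highest with DNase-treated ATEVs, and Cxcl11, like Cxcl9, with ATEVs. Cxcl15, Cxcl17, Ccl25 and Ccl27a, whose mean over the 8 libraries was at least 1 CPM, were not called in any comparison by edgeR. DESeq2 called Cxcl15 higher with ATEVs and with DNase-treated ATEVs against PBS (edgeR adjusted p 0.111 and 0.114) and Cxcl17 higher with ATEVs (edgeR adjusted p 0.194). Of the 12 genes DESeq2 called 5 with ATEVs and 4 with DNase-treated ATEVs against PBS, beside 1637 and 1764 genes in all. None of the 12 was called with NTEVs by edgeR or DESeq2, and 1 had an edgeR unadjusted p under 0.05. All 5 calls against PBS were lost without either PBS library. Those of Ccl7 with ATEVs and of Cxcl11 were lost when most other libraries were left out as well, and those of Cxcl2 and Ccl7 with DNase-treated ATEVs without either DNase-ATEV library.

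Receptors for these ligands were nearly unread. Of 22 chemokine receptor genes, 9 had no count and 21 had at most 11 counts in every library. Cxcr2 had 1 to 7 counts a library, and Cxcr3 had 3 counts in PBS library 2 and none elsewhere. Only Ackr3, a decoy receptor, was tested, at 21.0 to 34.4 CPM, and neither tool called it. Adam10 and Adam17, the proteases that release Cxcl16 and Cx3cl1 from the membrane, were at 120.1 to 184 and 60.6 to 81.0 CPM and were not called in any comparison by edgeR. The value nearest the threshold was that of Adam10 with DNase-treated ATEVs against PBS (log2 fold change -0.61 ± 0.12 SE, edgeR adjusted p 0.0505), which DESeq2 called lower.

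Genes of the interferon pathway followed Cxcl9 and Cxcl10 in part. Of 18 tested regulators, 10 rose with ATEVs against PBS, beside 3.52% of all tested genes that rose. The median log2 fold change was 1.26 over the list and -0.02 over all tested genes. With DNase-treated ATEVs 3 of the 18 rose (Irf7, Stat2 and Usp18), beside 2.16% of all tested genes, with a list median of 0.56. Irf1, a transcription factor that binds interferon-responsive promoters, was at 40.9 and 30.3 CPM with PBS, 393 and 192 CPM with ATEVs, 36.3 and 50.6 CPM with NTEVs, and 57.2 and 58.2 CPM with DNase-treated ATEVs. Both ATEV libraries stood above all others, library 1 above library 2, as for Cxcl9 and Cxcl10.

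Irf1 rose with ATEVs against PBS (log2 fold change 3.04 ± 0.36 SE, adjusted p by edgeR 0.00558) and fell with DNase-treated against untreated ATEVs (-2.34 ± 0.35 SE, edgeR adjusted p 0.0412). The second call was lost without any 1 of the PBS, NTEV or DNase-ATEV libraries, without ATEV library 1, and with only the 2 groups compared in the fit. Irf7, which drives type I interferon responses, had another pattern, at 5.30 and 5.68 CPM with PBS, 45.3 and 86.3 CPM with ATEVs, 10.97 and 28.0 CPM with NTEVs, and 26.2 and 59.5 CPM with DNase-treated ATEVs. It rose with ATEVs (log2 fold change 3.58 ± 0.60 SE, edgeR adjusted p 0.0217). With DNase-treated ATEVs it stood at 2.96 ± 0.59 SE (edgeR adjusted p 0.0497), a call lost with another scaling, DESeq2's size factors in edgeR. Usp18, which damps type I interferon signalling, was at 0.699 and 0.729 CPM with PBS, 9.17 and 16.5 CPM with ATEVs, 1.35 and 2.44 CPM with NTEVs, and 5.40 and 11.4 CPM with DNase-treated ATEVs. It rose by 4.16 ± 0.54 SE with ATEVs (edgeR adjusted p 0.00739) and by 3.55 ± 0.53 SE with DNase-treated ATEVs (edgeR adjusted p 0.0246). Stat2, a transcription factor of type I signalling, rose by 1.90 with ATEVs (edgeR adjusted p 0.0236) and by 1.63 with DNase-treated ATEVs (edgeR adjusted p 0.0498), the latter again lost with the other scaling. Socs1, a feedback inhibitor of Jak kinases, was at 2.04 and 2.61 CPM with PBS and 32.1 and 9.77 CPM with ATEVs (log2 fold change 3.17, edgeR adjusted p 0.0229), against 5.03 and 4.18 CPM with DNase-treated ATEVs. Without either PBS library the calls against PBS of Irf1, Irf7, Usp18, Stat2 and Socs1 were lost. The DNase-ATEV calls against PBS were lost in 6 (Irf7), 9 (Stat2) and 4 (Usp18) of 15 settings. The libraries of Irf7, Stat2 and Usp18 were thus above those of PBS with DNase-treated ATEVs, where the libraries of Cxcl9 overlapped those of PBS. DESeq2 called 11 of the 18 with ATEVs and 6 with DNase-treated ATEVs against PBS, beside 1637 and 1764 genes in all. Leaving out 1 library at a time gave 1 to 8 calls by edgeR with ATEVs and 0 to 3 with DNase-treated ATEVs. With NTEVs edgeR called 0 of the 18, beside 0.704% of all tested genes that rose and 0.408% that fell. By edgeR 7 of the 18 had an unadjusted p under 0.05, beside 2907 of all 15197 tested genes. DESeq2 called 2 of the 18, beside 983 genes in all.

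**Figure D4:**
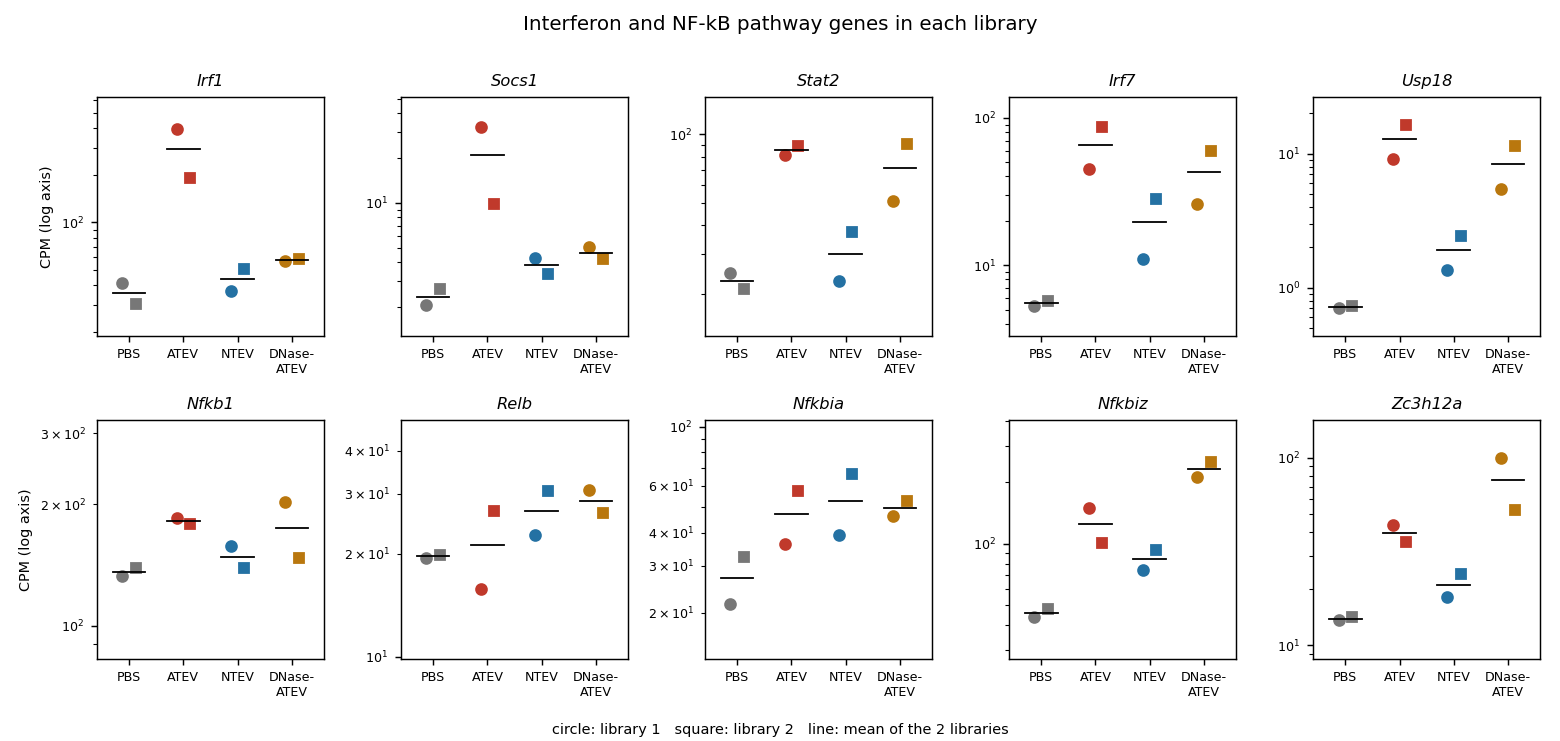
TMM-scaled CPM (vertical axis, logarithmic) of interferon-pathway genes (upper row) and of NF-kB regulators and Zc3h12a (lower row) in the 2 libraries of each group, with a line at the group mean. Irf1 stands at 192 and 393 CPM with ATEVs and at most 58.2 CPM elsewhere, and Nfkbiz is highest with DNase-treated ATEVs at 213 and 253 CPM.

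Of 20 tested regulators of the NF-kB machinery, 1 rose with ATEVs and 1 with DNase-treated ATEVs against PBS, in both cases Nfkbiz. Of all tested genes, 3.52% and 2.16% rose in these comparisons, so the list had no shortage of calls. The list medians were 0.16 and 0.20 on the log2 scale, beside -0.02 and 0.00 over all tested genes. Nfkbiz, a nuclear cofactor of NF-kB, was at 43.8 and 47.8 CPM with PBS, 149 and 101 CPM with ATEVs, 74.6 and 93.6 CPM with NTEVs, and 213 and 253 CPM with DNase-treated ATEVs. The groups did not overlap, and their order was that of Cxcl5 except that NTEVs stood above PBS. It rose by 1.45 ± 0.22 SE with ATEVs (edgeR adjusted p 0.0140) and by 2.345 ± 0.22 SE with DNase-treated ATEVs (edgeR adjusted p 0.00643), and both calls were lost without either PBS library. Nfkb1 (133 to 203 CPM), Relb (15.8 to 30.8 CPM) and Nfkbia, the inhibitor that NF-kB itself induces (21.6 to 66.3 CPM), were not called in any comparison by edgeR or DESeq2. For Nfkbia, however, all libraries of vesicle-treated cells lay above both PBS libraries (21.6 and 32.3 CPM). Its log2 fold changes against PBS were 0.80 ± 0.33 SE with ATEVs, 0.97 ± 0.33 SE with NTEVs and 0.88 ± 0.33 SE with DNase-treated ATEVs (edgeR adjusted p 0.217, 0.195 and 0.166). DESeq2 called 3 of the 20 with ATEVs (Bcl3, Nfkbiz and Tnfrsf1a) and 1 with DNase-treated ATEVs (Nfkbiz) against PBS, beside 1637 and 1764 genes in all. Where edgeR called 0, DESeq2 called Nfkbiz and Tnfrsf1a between DNase-treated and untreated ATEVs, beside 417 genes in all. Between DNase-treated ATEVs and NTEVs, where edgeR also called 0, DESeq2 called Nfkbiz, beside 198 genes in all. With NTEVs edgeR called 0 of the 20, beside 0.704% of all tested genes that rose and 0.408% that fell. By edgeR 5 of the 20 had an unadjusted p under 0.05, beside 2907 of all 15197 tested genes. DESeq2 called 1 of the 20, beside 983 genes in all.

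Of 8 genes that control the decay of chemokine mRNA, Zc3h12a rose with both kinds of ATEV. Of all tested genes, 3.52% rose with ATEVs and 2.16% with DNase-treated ATEVs. Zc3h12a encodes an RNase that degrades inflammatory transcripts and is itself induced by NF-kB. It was at 13.6 and 14.2 CPM with PBS, 43.8 and 35.7 CPM with ATEVs, 18.0 and 24.0 CPM with NTEVs, and 99.5 and 52.5 CPM with DNase-treated ATEVs. The log2 fold changes were 1.52 ± 0.31 SE with ATEVs (edgeR adjusted p 0.0386) and 2.45 ± 0.32 SE with DNase-treated ATEVs (edgeR adjusted p 0.0188), and both calls were lost without either PBS library, the ATEV call also without either ATEV library or NTEV library 2. The groups did not overlap, and their order was that of Nfkbiz.

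The libraries had the expression of epithelial cells, with 9 epithelial markers summing to 8818 to 11780 CPM, mostly from keratins. Against PBS 8 of the 9 had negative log2 fold changes and 1 a positive one, both with ATEVs and with DNase-treated ATEVs, and edgeR called none. Cldn4 had 50 and 67 counts with PBS and 1 and 27 with ATEVs. Epcam was at 18.2 and 15.9 CPM with PBS and 6.44 and 15.3 CPM with ATEVs. Of 19 T-cell markers, Cd2, Cd8a and Ifng were at 0 in all 8 libraries and 15 stayed under 10 counts, and their sum, nearly all Lck and Trac, was 11.1 to 12.2 CPM with PBS, 8.72 to 11.2 with ATEVs, 6.42 to 8.66 with NTEVs and 8.91 to 11.7 with DNase-treated ATEVs. Of 13 myeloid and B-cell markers, 4 were at 0, Adgre1, Tyrobp and Ms4a1 among them, and 8 stayed under 10 counts. Their sum, nearly all Cd14, was highest with DNase-treated ATEVs and second with ATEVs, like that of the NF-kB-type chemokines. It was 69.7 to 103 CPM with PBS, 108 to 125 with NTEVs, 156 to 168 with ATEVs and 202 to 275 with DNase-treated ATEVs. Cd14, a receptor for bacterial lipopolysaccharide, rose with DNase-treated ATEVs against PBS (log2 fold change 1.48, edgeR adjusted p 0.0284). All 5 tested markers of the myeloid and B-cell list had positive log2 fold changes against PBS with ATEVs and with DNase-treated ATEVs. At few counts, S100a9 had none with PBS or NTEVs, 4 and 2 with ATEVs and 10 and 21 with DNase-treated ATEVs. Of 13 fibroblast and endothelial markers, Dcn and Lum were at 0 and 6 stayed under 10 counts. Their sum, like that of the interferon-type chemokines, was highest with ATEVs. It was 10.2 to 11.4 CPM with PBS, 42.5 to 49.0 with ATEVs, 10.4 to 12.0 with NTEVs and 10.9 to 16.2 with DNase-treated ATEVs. The rise came chiefly through Acta2, a smooth muscle actin (log2 fold change 2.81 with ATEVs against PBS, edgeR adjusted p 0.00833). Of the 6 tested markers of this list, 4 had positive and 2 had negative log2 fold changes with ATEVs against PBS. Pdgfra had means of 0.872 CPM with PBS and 0.550 CPM with ATEVs, and Cdh5 had 0.511 and 0.297 CPM. In ATEV libraries 1 and 2 Acta2 was at 38.5 and 39.8 CPM, whereas the interferon-type sum was 77.1 and 11.8 CPM. Pdpn passed narrowly (2.41, edgeR adjusted p 0.0496), a call lost in 11 of 15 settings, among them the replicate block and the leaving out of any 1 library. The part of other cells in the chemokine differences was not tested beyond these values.

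Genes that overlap members on the opposite strand were not called by edgeR. Gm17268, which overlaps Ccl2, had no count, Art3, which overlaps Cxcl10, had 0 to 4 counts a library, and Zmynd15, which overlaps Cxcl16, had 75 to 323 counts beside 5663 to 9114 for Cxcl16. DESeq2 called Zmynd15 higher with ATEVs and with DNase-treated ATEVs against PBS (edgeR adjusted p 0.0552 and 0.0553). Whether the counting used strand is not given in the sources used here, so the 2 genes of such a pair could not be separated with certainty.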

How the data were processed

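Per the labels' protocols, total RNA was column-purified and libraries were prepared with a kit for stranded mRNA. Names in the submitters' processing notes, which give neither role nor order, are bcl2fastq 2.19, Cufflinks 2.1.1, TopHat, TopHat2 2.0.11 and, as mouse build, mm9. Which counter, strand setting, rule for reads that match several genes and annotation were used is not given in the sources used here. Whole-number counts per gene for each of the 8 libraries were deposited by the authors, under Ensembl identifiers. GENCODE M21 (GRCm38) gave symbols to 42250 of 42687 of them, as well as gene bounds, exon lengths and gene classes.

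The counts were tested with edgeR 4.0.16 (R 4.3.3): the filter on expression by group kept 15197 genes, TMM (trimmed mean of M-values) scaled the libraries, and the quasi-likelihood model had 1 mean per group, 8 libraries, 4 residual degrees of freedom and a common biological coefficient of variation of 0.226. P-values, two-sided, were adjusted over all tested genes of a comparison (Benjamini-Hochberg, threshold 0.05). CPM are counts-per-million after TMM scaling, and correlations used their log2 with a prior count of 2. Limits taken from counts cover counting error only, as no molecular identifiers are named. The libraries of each group differed beyond sampling noise (chi-square per gene 39.0 to 145) and were counted singly.

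The members and the gene lists were chosen with earlier results of these data known. All 10 members were described. Of the other lists, genes were named where called (at most 6 a list, smallest adjusted p), with Irf1, Nfkbia, Nfkb1, Relb, Adam10, Adam17, Cxcr2 and Cxcr3 always, and other chemokines also where their mean was at least 1 CPM. Genes of like pattern were the 3 with the highest r per member among named genes with a mean log2 CPM of at least 1. Ackr3, Bcl3, Tnfrsf1a and the genes that overlap members were named outside this rule, after their values were seen, and some genes it takes are not reported here. The model step was tested on simulated counts. Alternatives were DESeq2 1.42.0, other scaling, no filter, a replicate block, protein-coding genes only, only the 2 groups compared, and each library left out in turn.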

Additional observations from a re-analysis of the deposited data

How the results depend on the processing

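None of the genes named here kept a call against PBS without PBS library 1. A group cut to 1 library was assumed to vary like the others. In the order ATEV, NTEV and DNase-ATEV against PBS, ATEV against NTEV, DNase-ATEV against ATEV and DNase-ATEV against NTEV, edgeR called 5, 0, 5, 3, 0 and 0 members and 788, 169, 458, 181, 101 and 8 genes in all. Leaving out each library in turn gave 0 to 5, 0, 0 to 5, 0 to 3, 0 to 2 and 0 to 1 members, and 131 to 562, 5 to 125, 11 to 382, 71 to 166, 27 to 99 and 1 to 10 genes. DESeq2 called 5, 0, 6, 5, 4 and 5 members and 1637, 983, 1764, 477, 417 and 198 genes. Without a filter the counts were 7, 0, 6, 5, 6 and 5 members and 1454, 773, 1520, 459, 343 and 180 genes. With only the groups compared in the fit, 2 members were called for ATEV against PBS and 1 for ATEV against NTEV, and 454, 51, 47 and 2 genes for ATEV against PBS and the last 3 comparisons. With protein-coding genes only, 1 member (Cxcl5) was called for DNase-ATEV against PBS, and 370, 1 and 33 genes against PBS. Other scaling changed no member's call. By total count the transmembrane sum with DNase-treated ATEVs was 327.7 CPM in place of 316.0. The cause of these differences was not tested.

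The replicate number was not used to pair libraries. Deviations of same-numbered libraries correlated at -0.18, -0.24 and -0.14 between PBS and ATEV, NTEV and DNase-ATEV, and at 0.49 to 0.55 among the vesicle groups. With a replicate block 1 member (Cxcl5) was called for DNase-ATEV against NTEV and 330, 1052 and 24 genes for NTEV and DNase-ATEV against PBS and DNase-ATEV against NTEV, and Cxcl9 turned to 0.094 for NTEV against PBS. Cxcl5 was also called for ATEV against NTEV.

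No value that changed sign had passed the test. For NTEV against PBS, leaving out a library gave log2 ranges of -0.032 to 1.78 (Cxcl1), -0.81 to 0.25 (Cxcl3), -0.11 to 0.36 (Cxcl5), -1.39 to 0.54 (Ccl2), -0.23 to 0.70 (Ccl20), -0.54 to 0.59 (Cxcl9), -1.03 to 0.26 (Cxcl10) and -0.055 to 0.33 (Cxcl16). Cxcl9 ran from -1.01 to 0.043 for DNase-ATEV against PBS. Cxcl16 ran from -0.075 to 0.30 for ATEV against NTEV and from -0.12 to 0.34 for DNase-ATEV against ATEV, where Cx3cl1 ran from -0.36 to 0.46. Alternatives for genes that are not members were added after the data were seen.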
